A study of Mus musculus with 6 samples.

Results

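Levels of 47 genes that copy the genome in S phase were examined in cultured tumour fibroblasts of mice. The genes were chosen by symbol from the steps of replication, and all 47 were found among the 48368 gene symbols of the count tables. They encode the helicase and the factors that load and start it, the primase and polymerases, the clamp and its loader, single-strand binding, nick sealing, nucleotide supply, chromatin assembly behind the fork, and the cyclin E and E2F genes that act upstream of S phase. Whole-transcriptome RNA-seq was made from 6 libraries, 3 labelled Hic-5+/- (HET) and 3 labelled Hic-5-/- (KO). Each library came from primary cancer-associated fibroblasts (CAFs), the fibroblasts of a tumour, separated from mammary tumours of MMTV-PyMT mice by digestion and differential centrifugation and then cultured in serum medium. In these mice the mammary tumour virus promoter drives polyomavirus middle T antigen in the mammary epithelium. Both labels share this transgene, and HET carries 1 disrupted Hic-5 allele, so neither is a wild type. Animal age, strain and passage are not given in the sources used here. Hic-5, encoded by Tgfb1i1, is a LIM-domain adaptor of focal adhesions.

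As background, replication starts where the origin recognition complex, with CDC6 and CDT1, loads rings of MCM2-7 onto DNA in G1. CDC45 and the GINS complex join these rings when S phase starts and make the active CMG helicase. In cycling fibroblasts many of these genes are transcribed by E2F factors once RB is phosphorylated, so their RNA is high in dividing cultures and low in resting or senescent ones.

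Tgfb1i1 itself had 223, 348 and 125 CPM in the HET libraries (replicates 1 to 3) and 90.4, 0.232 and 156 CPM in the KO libraries. CPM is a count scaled to a common library total. Its transcript was therefore near 0 in KO replicate 2 only, and directions below are those of libraries labelled KO against libraries labelled HET. Library totals lay between 24954273 and 42470598 estimated counts. The fibroblast marker list summed to between 9568 and 18048 CPM for HET libraries and between 3264 and 7280 CPM for KO libraries. KO replicate 2 stood apart from the other 5 libraries on a first principal component that held 42.7% of the variance. It lay at 154.4 there, and HET replicate 2 lay at the other end, at -79.2. Between them came HET replicate 3 (-51.0), KO replicate 3 (-30.2), HET replicate 1 (-12.3) and KO replicate 1 (18.2). Of the fibroblast list, Col1a2 was at 0.491 CPM and Thy1 at 0.981 CPM in this library. Vim was at 2870 CPM, against 2020 to 4387 CPM elsewhere. Pdgfra and Pdgfrb were lowest there, at 124 and 138 CPM, against 143 to 689 and 184 to 574 CPM elsewhere. The series text calls the libraries technical triplicates, and nothing says which came from separate animals, so the p-values reflect the variation among these 6 libraries alone.

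DNA replication genes had higher mean levels in the libraries labelled KO, but none of the 47 passed the adjusted threshold of 0.05 (background 0.0% of 17584 tested genes). All 47 genes passed the filter on low counts, with at least 22 counts in every library. The log2 fold change of KO against HET was above 0 for 46 of them (background 50.9%) and below 0 for Rrm2. The median over the 47 was 1.28, against 0.01 over all tested genes, and the range ran from -0.02 to 2.34. With HET replicate 2 and KO replicate 2 left out, the median of the 47 was 0.23. Benjamini-Hochberg adjusted p-values in edgeR's quasi-likelihood test ran from 0.579 to 0.992. The unadjusted p was under 0.05 for 7 genes, Orc2, Prim1, Mcm4, Orc6, Ccne1, Fen1 and Rpa1, all with higher KO means (background 4.3%). With a term for the title number that HET replicate 3 and KO replicate 3 share, this held for 0 genes (background 2.54%), the smallest p being 0.0556. In bulk cultures, more cells in S phase and more replication RNA per cell cannot be told apart.

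The 2 ends of the library order were shared by nearly all members. The same 2 libraries were the ends of the first principal component over the tested genes. By the median deviation of the 47 genes, the libraries stood in the same order as on that component. KO replicate 2 was the highest library for 46 of 47 genes (background 26.3%), the exception being Pole2, which was highest in HET replicate 1. HET replicate 2 was the lowest library for 43 of 47 (background 21.7%), the exceptions being Orc2, Rpa3, Prim2 and Rrm2. The summed level of the 47 genes was 2152, 830.2 and 1192 CPM in the HET libraries, and 1975, 5242 and 1698 CPM in the KO libraries, replicates 1 to 3 of each. HET replicate 1 thus summed higher than KO replicates 1 and 3. Single genes followed this only in part. HET replicate 1 exceeded KO replicate 3 in 36 genes and HET replicate 3 in 46, but KO replicate 1 in only 25 of 47. Shares over all tested genes were not computed for these comparisons. Both labels overlapped in 42 genes, and all KO libraries lay above all HET libraries in 5, namely Mcm4, Orc6, Gins3, Pola1 and E2f1 (background 8.1%). This count is near the background.

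**Figure D1:**
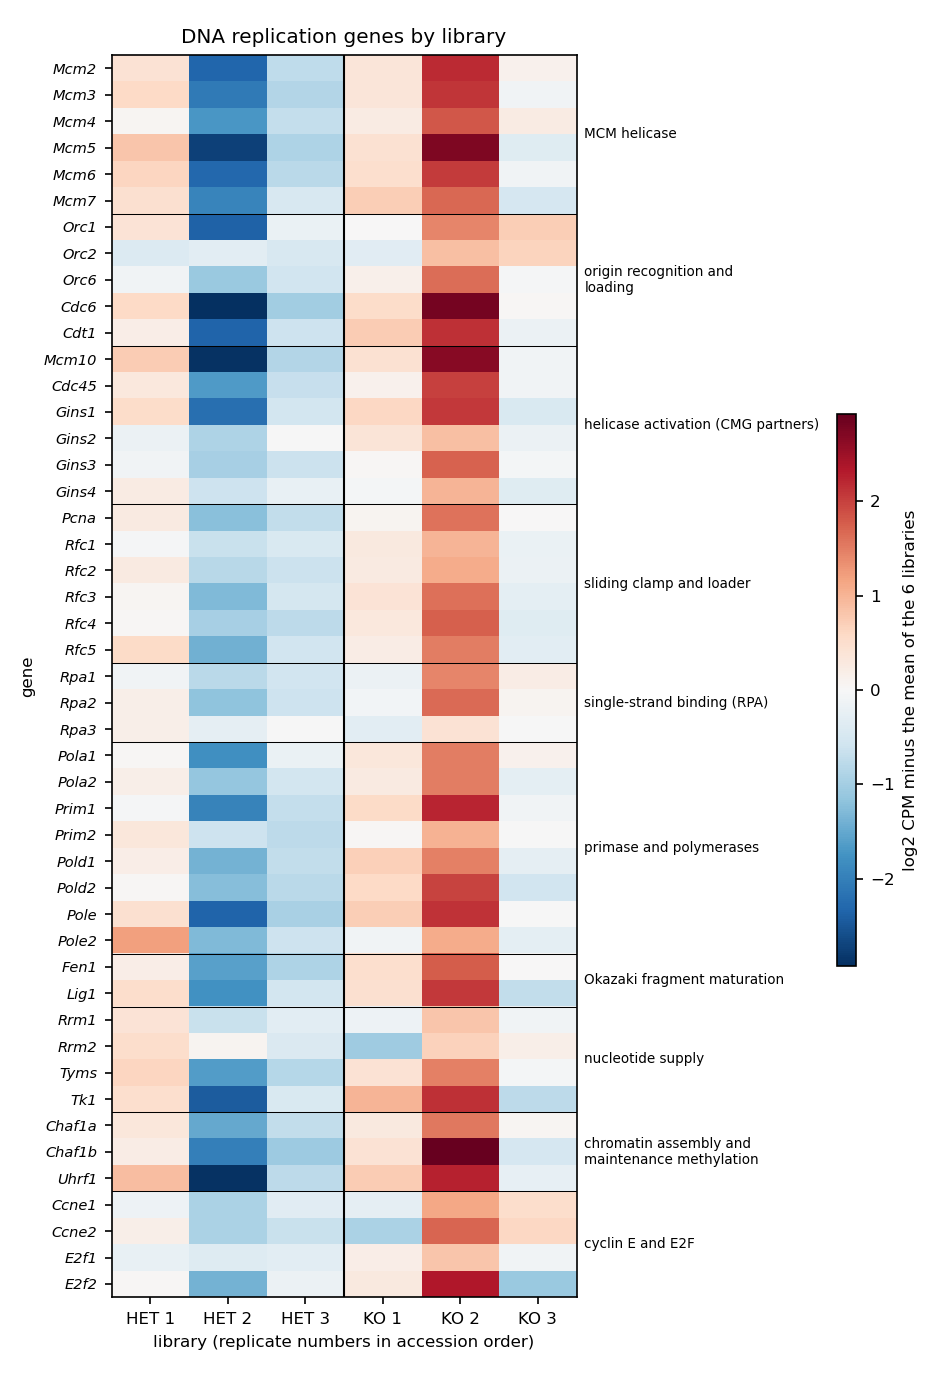
Level of each of the 47 genes (rows, grouped by role) in each of the 6 libraries (columns), as log2 CPM minus that gene's mean over the 6 libraries. The HET 2 column is blue and the KO 2 column red in nearly every row, while HET 1, KO 1 and KO 3 lie near the mean, with median deviations of 0.24, 0.29 and -0.10.

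Cell markers also differed between libraries, not only at the 2 ends of this order. HET replicate 2 and KO replicate 3 carried leukocyte marker sums of 1444 and 1143 CPM, led by Lyz2, against 7.62 to 39.7 CPM in the other 4 libraries. Ptprc stood at 8.19 and 5.67 CPM in those 2 libraries, and Cd3e was at 0 in both. KO replicate 2 had the highest epithelial marker sum, 86.2 CPM against 17.7 to 65.8 CPM elsewhere, with Krt8 at 13.7, Krt18 at 37.9 and Cdh1 at 14.6 CPM. Krt19 of the same list went the other way, with 0.542 CPM in KO replicate 2 against 13.0 to 64.1 CPM elsewhere, and its 64.1 CPM made up most of the sum in HET replicate 1. The pericyte and smooth muscle sum of KO replicate 2 was 123 CPM, against 1376 to 6802 CPM in the others. Acta2 of this list was at 45.5 CPM in KO replicate 2, against 1338 to 6455 CPM elsewhere. Mcam did not follow, at 76.3 CPM in both KO replicate 2 and HET replicate 2 and 9.30 to 18.8 CPM elsewhere. Endothelial marker sums were 1.37 to 13.1 CPM in all 6. Each of the 10 leukocyte and 10 epithelial markers had counts in some library, but Ptprc, Adgre1 and Tyrobp were at 0 in HET replicate 1 and KO replicate 2, and Elf3 was at 0 in 4 libraries, not in KO replicate 2 or HET replicate 3. The part of these cell markers in the levels of replication genes was not tested.

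The fits were repeated with libraries left out. The median log2 fold change of the 47 genes came to 0.97 once HET replicate 2 was left out, and to 0.53 once KO replicate 2 was left out. In each case 0 genes had an unadjusted p under 0.05, where the background was 1.49% and 2.0%, so these counts are near the background. Without both the median was 0.23, with 38 of 47 genes above 0 (background 50.7%), 0 at an unadjusted p under 0.05 (background 1.21%) and a smallest unadjusted p of 0.149, for Orc2. Single genes then ranged from -0.75 for Pole2 to 0.69 for Orc2. The 9 genes below 0 were Pole2, Rrm2, Rpa3, Rrm1, Gins4, E2f2, Rfc5, Mcm5 and Lig1. The number of genes at an unadjusted p under 0.05 was 20 without HET replicate 1 (background 3.89%) and 17 without KO replicate 3 (background 5.64%), and 0 without HET replicate 3 (background 2.37%). With all 6 libraries it was 18 in DESeq2 (background 3.25%), 14 with library size alone as the scaling (background 6.82%) and 15 with no filter on low counts (background 3.2%). It was 2 in limma-voom (background 3.67%) and 2 on log2(RPKM + 1) (background 5.9%), both near the background. At its adjusted p DESeq2 called 0 of the 47 genes (background 1.05%), the smallest being 0.242. HET replicate 3 and KO replicate 3 carry the same number in their titles, and without this pair the number was 2 (background 2.9%). Between these 2 libraries KO was higher in 41 of 47 genes (background 50.2%), with a median log2 ratio of 0.55 against 0.0034 over all tested genes.

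**Figure D2:**
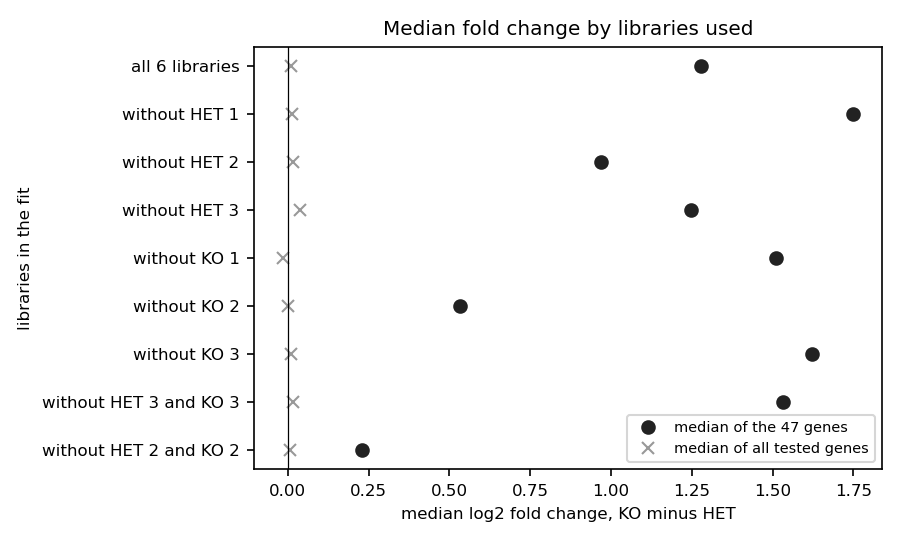
Median log2 fold change of KO against HET (x axis) over the 47 genes (circles) and over all tested genes (crosses), for the fit with all 6 libraries and for fits with libraries left out (rows). The circle moves from 1.28 with all 6 to 0.53 without KO 2 and 0.23 without HET 2 and KO 2, while the crosses stay near 0.

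Promoter sequences were searched for the words that E2F factors bind, because most of these genes share the 2 ends of the library order. The words were TTTCCCGC, TTTGGCGC, TTTCGCGC and TTTGCCGC, on both strands, and neighbouring words can overlap. Of the 47 genes, 39 had a RefSeq window on GRCm38.p6 of 250 bases before to 50 bases after the start, with 47 windows in all. One of the words stood in 15 of these windows (31.9%), each of another gene, against 744 of 32851 windows of all genes (2.26%). In 9 genes a word lay upstream of the RefSeq start, but in 6 of these the stretch lies wholly or partly inside the GENCODE gene. The 3 below, from Mcm5, Mcm6 and Pola1, lie upstream of the start in both annotations. Capitals mark the E2F words, and the gene's own strand is shown from 5′ to 3′.
Mcm5 (chr8:75109335-75109388, + strand): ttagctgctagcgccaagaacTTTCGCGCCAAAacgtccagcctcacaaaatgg
Mcm6 (chr1:128359787-128359836, - strand): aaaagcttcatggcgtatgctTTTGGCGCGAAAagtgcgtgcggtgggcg
Pola1 (chrX:93632265-93632314, - strand): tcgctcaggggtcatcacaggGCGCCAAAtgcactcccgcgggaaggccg

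In Mcm5 and Mcm6 words on opposite strands overlap, so the run of capitals is longer there. Counted with 0 at the first base of the RefSeq transcript, the first word began at -153 in Mcm5, at -110 in Mcm6 and at -138 in Pola1. The CHR word TTTGAA, found in promoters of late cell cycle genes, stood in 6 of the 47 windows (12.8%) against 17.9% of all windows. In the list of proliferation markers outside S phase it stood in 5 of 8 windows (62.5%), and an E2F word in 1 of 8. A match is a description of the letters and not evidence of binding. Genes with an E2F word had a median of 14.0-fold between their highest and lowest library (15 genes, 5.66 to 52.5), and genes with a window but no word 7.11-fold (24 genes, 1.67 to 47.2). These ranges overlap almost wholly, and the median log2 fold changes were 1.37 and 1.2.

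The MCM2-7 helicase, which unwinds DNA ahead of the fork, had a median log2 fold change of 1.54 over its 6 genes. Mcm4 (chromosome 16, 15623897 to 15637400 on GRCm38) stood at 68.5, 20.2 and 40.6 CPM in HET and 77.6, 231 and 77.0 CPM in KO. Its lowest KO library lay just above its highest HET library, and the log2 fold change was 1.58 ± 0.62 (SE, adjusted p = 0.579). Mcm2 stood at 86.3, 12.9 and 38.5 CPM in HET and 83.0, 292 and 71.1 CPM in KO. Here HET replicate 1 exceeded KO replicates 1 and 3, and the log2 fold change was 1.70 ± 0.83 (adjusted p = 0.592). For Mcm3 the levels were 87.4, 13.9 and 32.4 CPM in HET and 74.6, 249.9 and 54.0 CPM in KO, with a log2 fold change of 1.5 ± 0.84. Mcm5 had the widest spread of the complex, 44.2-fold from 6.63 CPM (HET replicate 2) up to 293 CPM (KO replicate 2), and was picked after its values were seen. The narrowest spread of the 6 was that of Mcm4, 11.4-fold.

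Origin recognition and loading factors had a median of 1.31 over 5 genes. Orc2 (chromosome 1, 58462771 to 58505109 on GRCm38), a subunit of the origin recognition complex, stood at 28.3, 30.1 and 26.9 CPM in HET and 29.7, 68.8 and 59.1 CPM in KO. KO replicates 2 and 3 were high and KO replicate 1 lay among the HET libraries, with a log2 fold change of 0.89 ± 0.33 (adjusted p = 0.579). Orc2 differed from the other members in that HET replicate 2 was its highest HET library. Orc6 (chromosome 8, 85299632 to 85308278 on GRCm38) stood at 29.9, 15.0 and 21.6 CPM in HET and 35.2, 98.0 and 31.1 CPM in KO, without overlap, with a log2 fold change of 1.31 ± 0.52. For Cdt1, which brings MCM rings to origins, levels were 19.2, 3.33 and 11 CPM in HET and 28.2, 74.0 and 14.9 CPM in KO. Its labels overlapped through HET replicate 1 and KO replicate 3, with a log2 fold change of 1.80 ± 0.81. Cdc6, the ATPase that loads MCM together with CDT1, had the widest spread of all 47 genes. It stood at 17.7, 1.56 and 5.88 CPM in HET and 17.3, 82.1 and 12.1 CPM in KO, 52.5-fold from end to end, and was picked after its values were seen. HET replicate 1 and KO replicate 1 were nearly level for Cdc6, and the log2 fold change of 2.15 ± 1.08 had an adjusted p of 0.593.

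**Figure D3:**
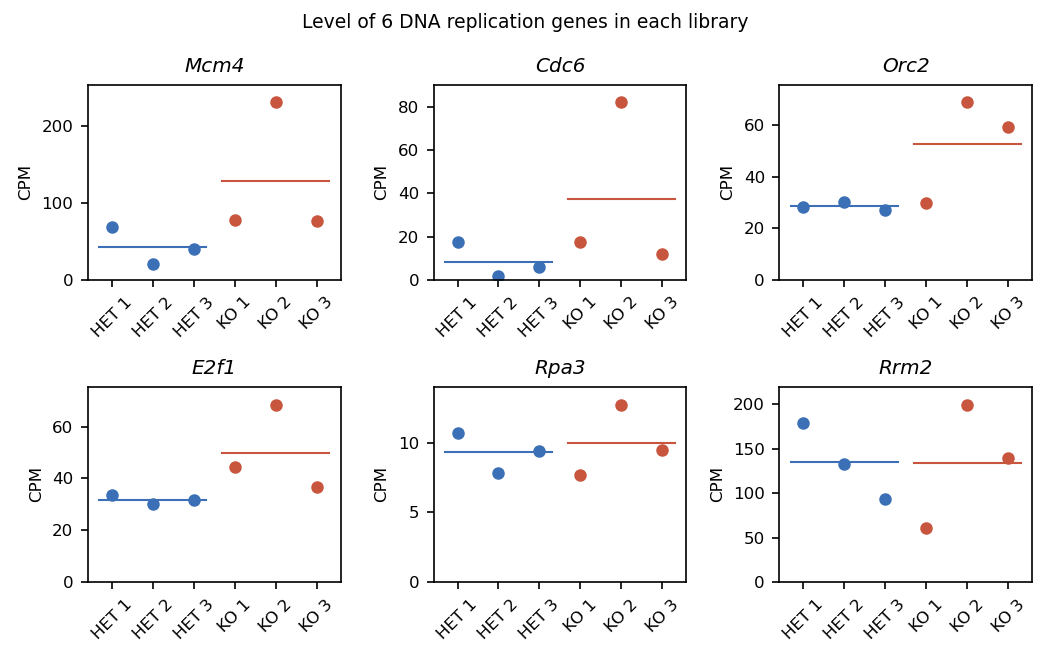
CPM (linear y axis from 0) of 6 replication genes in each HET (blue) and KO (red) library, with the mean of each label as a line. KO 2 is the top point in all 6 panels and Cdc6 spans 1.56 to 82.1 CPM, whereas Rpa3 spans only 7.64 to 12.7 CPM; the panels were picked after values were seen.

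The partners that turn the loaded ring into a working helicase had a median of 1.40 over 6 genes. Gins3 (chromosome 8, 95633453 to 95645060 on GRCm38) stood at 10.9, 6.0 and 7.61 CPM in HET and 12, 39.1 and 11.3 CPM in KO, without overlap, and its log2 fold change was 1.35 ± 0.57 (adjusted p = 0.583). KO replicates 1 and 3 exceeded HET replicate 1 only slightly. Gins2 stood at 43.4, 26.3 and 49.0 CPM in HET and 63.7, 90 and 43.7 CPM in KO, a narrow spread of 3.42-fold with a log2 fold change of 0.73 ± 0.35. Cdc45 stood at 8.71, 2.25 and 4.43 CPM in HET and 7.67, 28.2 and 6.62 CPM in KO, with a log2 fold change of 1.47 ± 0.75. For Cdc45 all libraries but the 2 extreme ones lay between 4.43 and 8.71 CPM. Mcm10, which acts as the helicase starts, spanned 47.2-fold, and Gins4 3.01-fold.

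The sliding clamp PCNA and its loader RFC had a median of 1.05 over 6 genes, and none of these was at an unadjusted p under 0.05. Rfc1, the large subunit of the loader, stood at 55.8, 36.4 and 42.0 CPM in HET and 69.6, 114 and 49.8 CPM in KO, with a log2 fold change of 0.80 ± 0.35 (adjusted p = 0.588). Only KO replicate 3 lay within the HET range. Rfc3 stood at 16.8, 6.63 and 11.3 CPM in HET and 21.3, 49.4 and 13.3 CPM in KO (log2 fold change 1.28 ± 0.58). Rfc4 stood at 7.93, 3.98 and 4.59 CPM in HET and 9.65, 25.9 and 6.03 CPM in KO (log2 fold change 1.33 ± 0.61). In both genes KO replicate 3 again fell inside the HET range. Pcna, described further below for its pseudogene copy, had a log2 fold change of 1.19 ± 0.58 (adjusted p = 0.592).

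Of the 3 subunits of RPA, which coats unwound single strands, Rpa3 did not follow the others. Rpa1 stood at 128, 79.5 and 94.4 CPM in HET and 122, 369.5 and 161 CPM in KO, with a log2 fold change of 1.11 ± 0.46 (adjusted p = 0.581). KO replicates 2 and 3 exceeded all HET libraries and KO replicate 1 did not. Rpa2 stood at 22.1, 8.67 and 12.9 CPM in HET and 18.5, 62 and 20.7 CPM in KO (log2 fold change 1.21 ± 0.59). Rpa3 (chromosome 6, 8255936 to 8259173 on GRCm38) stood at 10.7, 7.85 and 9.41 CPM in HET and 7.64, 12.7 and 9.44 CPM in KO. This was the narrowest spread of the 47 genes, 1.67-fold, with a log2 fold change of 0.09 ± 0.30 (adjusted p = 0.929).

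Primase and the polymerase genes had a median of 1.27 over 8 genes. Prim1 (chromosome 10, 128015168 to 128030037 on GRCm38), the catalytic primase subunit, stood at 13.6, 3.61 and 8.63 CPM in HET and 20.8, 66.0 and 13.1 CPM in KO, with a log2 fold change of 1.95 ± 0.75 (adjusted p = 0.579). KO replicate 3 alone lay within its HET range. The lagging-strand polymerase delta gene Pold2 stood at 27.1, 11.2 and 15.4 CPM in HET and 39.4, 104 and 18.1 CPM in KO (log2 fold change 1.59 ± 0.68). Pold1, its catalytic subunit, stood at 16.9, 5.66 and 8.98 CPM in HET and 23.9, 40.8 and 12.4 CPM in KO (log2 fold change 1.29 ± 0.57). All 3 genes had the same 2 highest libraries, KO replicates 2 and 1. Pole2, a subunit of the leading-strand polymerase epsilon, behaved otherwise and was picked after its values were seen. It stood at 7.08, 1.25 and 2.00 CPM in HET and 2.87, 6.48 and 2.5 CPM in KO, with a log2 fold change of 0.20 ± 0.76.

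FEN1 and LIG1 trim and seal Okazaki fragments. Fen1 (chromosome 19, 10199132 to 10204169 on GRCm38) stood at 44.3, 13.1 and 21 CPM in HET and 54.9, 132 and 39.5 CPM in KO, with a log2 fold change of 1.53 ± 0.62 (adjusted p = 0.579). Lig1 stood at 27.8, 5.72 and 13.4 CPM in HET and 26.9, 82.1 and 11.9 CPM in KO, with a log2 fold change of 1.37 ± 0.84 (adjusted p = 0.632). In Lig1, KO replicate 3 lay below HET replicates 1 and 3.

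The genes of nucleotide supply had the lowest median of the 10 roles, 0.72 over 4 genes, and were the most mixed. Tk1, the salvage thymidine kinase, stood at 48.7, 6.43 and 25.4 CPM in HET and 68.4, 150.5 and 20.3 CPM in KO (log2 fold change 1.57 ± 0.91). Tyms, which makes thymidylate, stood at 46.1, 9.70 and 16.9 CPM in HET and 39.8, 83.1 and 28.8 CPM in KO (log2 fold change 1.06 ± 0.67). Both followed the common library order at its 2 ends. Rrm1, the large subunit of ribonucleotide reductase, had the same ends over a narrower spread. It stood at 311, 149.8 and 188 CPM in HET and 210.0, 413 and 218 CPM in KO, with a log2 fold change of 0.37 ± 0.40 (adjusted p = 0.767). Rrm2, the small subunit (chromosome 12, 24708241 to 24714146 on GRCm38) stood at 179, 133 and 93.9 CPM in HET and 60.9, 199.8 and 139.7 CPM in KO, lowest in KO replicate 1. Its log2 fold change was -0.02 ± 0.47 (adjusted p = 0.992).

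CAF-1, which places histones on new DNA, and UHRF1, which guides maintenance methylation, had a median of 1.48 over 3 genes. Chaf1b had the largest log2 fold change of the 47 genes, 2.34 ± 1.02 (adjusted p = 0.588), from 15.1, 3.24 and 6.2 CPM in HET and 17.5, 97.3 and 9.24 CPM in KO. KO replicate 2 alone stood far above the rest. Its partner Chaf1a stood at 45.2, 12.8 and 22.1 CPM in HET and 44.2, 105 and 37.6 CPM in KO (log2 fold change 1.22 ± 0.59). Uhrf1 stood at 77.4, 5.57 and 24.4 CPM in HET and 68.6, 196 and 34.9 CPM in KO (log2 fold change 1.48 ± 1.02). In Chaf1a and Uhrf1, HET replicate 1 exceeded KO replicates 1 and 3.

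Cyclin E, which with CDK2 starts S phase, and the E2F1 and E2F2 activators had a median of 1.11 over 4 genes. Ccne1 stood at 20.4, 12 and 18.0 CPM in HET and 19.0, 49.8 and 32.4 CPM in KO, with a log2 fold change of 1.01 ± 0.41 (adjusted p = 0.579). E2f1 (chromosome 2, 154559407 to 154569892 on GRCm38) stood at 33.5, 30.2 and 31.7 CPM in HET and 44.6, 68.5 and 36.6 CPM in KO, with a log2 fold change of 0.65 ± 0.27 (adjusted p = 0.582). The HET libraries of E2f1 were nearly level and all KO libraries lay above them, so HET replicate 2 hardly stood out. Ccne2 stood at 15.7, 7.28 and 8.83 CPM in HET and 7.33, 45.3 and 21 CPM in KO, with a log2 fold change of 1.21 ± 0.67 (adjusted p = 0.608). In Ccne2, KO replicate 1 was nearly as low as HET replicate 2. Over all 47 genes the median fold between the highest and lowest library was 8.18, against 2.33 over 16484 tested genes with at least 3 counts in each library. Without HET replicate 2 and KO replicate 2 the median of the 47 was 2.19, against 1.83 for those tested genes over the same 4 libraries.

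**Figure D4:**
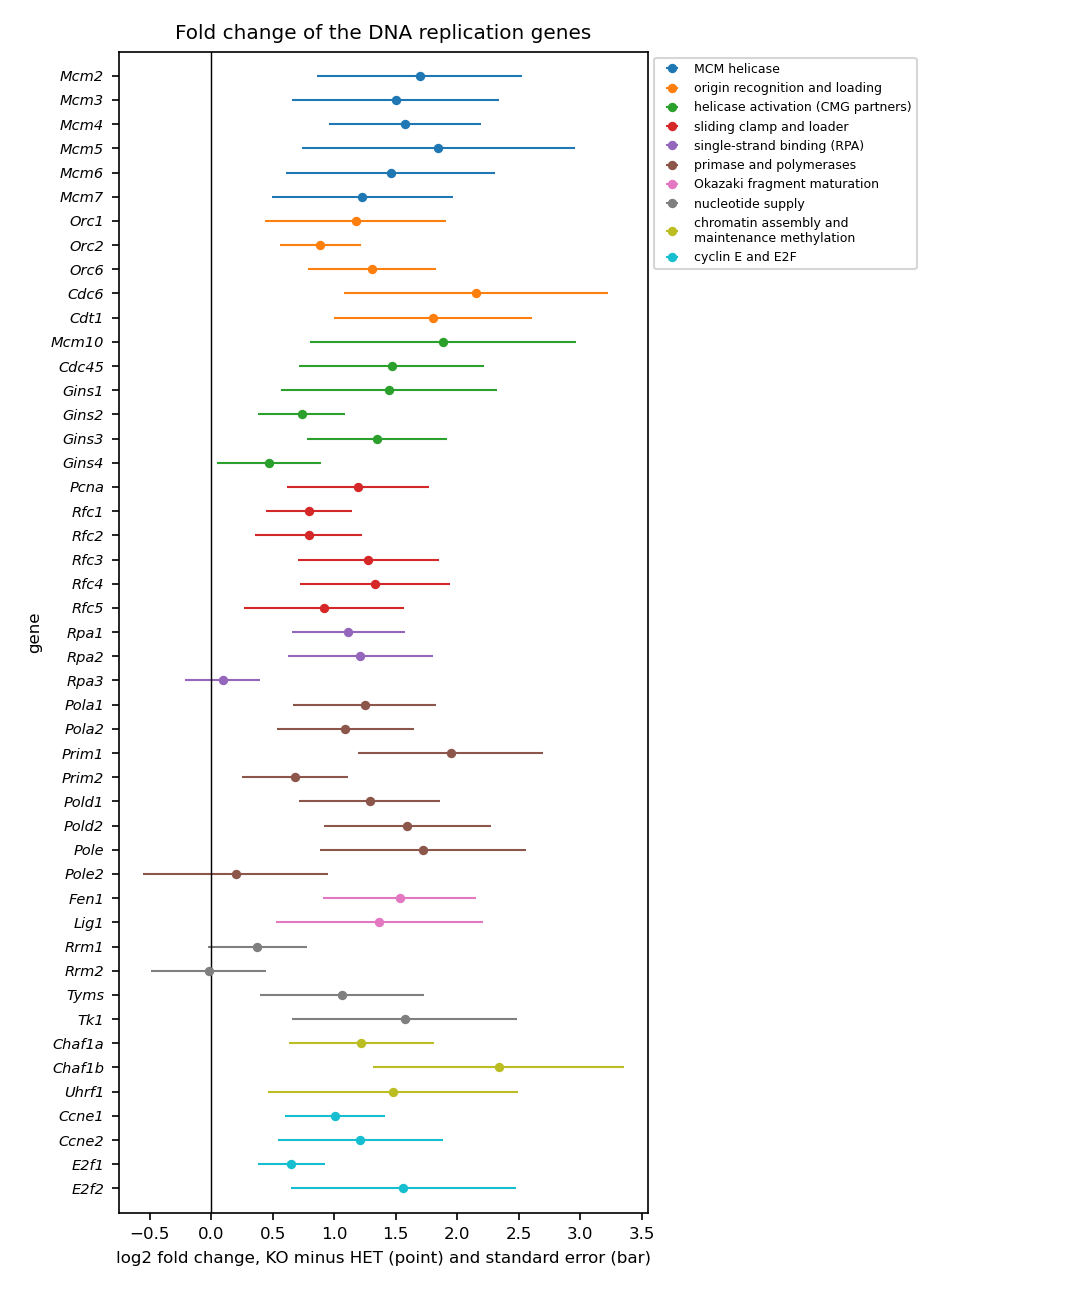
Log2 fold change of KO against HET (points) with its standard error (bars) for the 47 genes, coloured by role. Points of 43 genes lie more than 1 standard error above 0, the other 4 being Rpa3, Pole2, Rrm1 and Rrm2, and no gene passed an adjusted p of 0.05. The share of all tested genes more than 1 standard error above 0 was not computed.

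Other genes of the pathway were counted from lists drawn up by function, and none of their members passed the adjusted threshold. Of 36 further replication machinery genes, 31 had a log2 fold change above 0 (background 50.9%, median 0.95). At an unadjusted p under 0.05 there were 3, all higher in KO (background 4.3%). Rnaseh2a, a subunit of the ribonuclease that removes RNA from DNA, stood at 16.2, 10.4 and 12.8 CPM in HET and 25.5, 40.2 and 16.4 CPM in KO. Dna2, a flap nuclease of Okazaki fragments, stood at 3.47, 1.05 and 2.08 CPM in HET and 3.84, 26.4 and 5.43 CPM in KO. KO replicate 2 was highest for 28 (background 26.3%) and HET replicate 2 lowest for 24 (background 21.7%) of these 36 genes.

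Of 11 further nucleotide supply genes, 7 lay above 0 (background 50.9%, median 0.78). At an unadjusted p under 0.05 there were 4, all higher in KO (background 4.3%). Nme1, a nucleoside diphosphate kinase, had the smallest p of them, with 106, 68.5 and 115 CPM in HET and 197, 224 and 180 CPM in KO. All its KO libraries lay well above its HET libraries, with a log2 fold change of 1.05 ± 0.26 (adjusted p = 0.579). Dctpp1, which clears dCTP, stood at 15.2, 6.34 and 10.6 CPM in HET and 24.9, 54.3 and 20.3 CPM in KO. Both had all 3 KO libraries above HET (background 8.1%). They were named for a small p in these data, which favours genes without overlap, so that share is no fair comparison. Of 20 checkpoint and fork repair genes, 18 lay above 0 (background 50.9%, median 0.92). Hus1, a subunit of the checkpoint clamp, had the smallest p of these, with a log2 fold change of 0.87 ± 0.32.

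Of 26 genes of G1 to S control, 18 lay above 0 (background 50.9%, median 0.74). At an unadjusted p under 0.05 there were 2 in each direction (background 4.3% higher, and 755 of 17584 genes lower). Myc stood at 64.6, 32.4 and 66.3 CPM in HET and 88.1, 165 and 151 CPM in KO (log2 fold change 1.31 ± 0.38). Cdc25a, the phosphatase that activates CDK2, stood at 27.5, 16.3 and 21.6 CPM in HET and 43.6, 45.6 and 29.8 CPM in KO. Neither overlapped between labels, with KO higher in both (background 8.1%), but both were likewise named for a small p. The 2 lower genes, named after their values were seen, were Ccnd2 (log2 fold change -1.25 ± 0.45) and E2f6 (-1.09 ± 0.41).

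The 7 CDK inhibitor genes had a median of -0.63, with 3 above 0 and 4 below. The sign of this median turned in some fits, to 0.093 in limma-voom, 0.24 without HET replicate 3 and 0.53 without HET replicate 3 and KO replicate 3. Cdkn2b, which encodes the CDK4 and CDK6 inhibitor p15, stood at 57.7, 126 and 71.5 CPM in HET and 8.08, 17.2 and 25.6 CPM in KO. All its HET libraries lay above all KO libraries, a direction not counted over all genes. The log2 fold change was -2.33 ± 0.51 (adjusted p = 0.579 in edgeR's quasi-likelihood test, 0.0073 in DESeq2). Cdkn2a stood at 22.4, 121 and 105 CPM in HET and 34.9, 64.0 and 33.9 CPM in KO, overlapping. Cdkn1a, which encodes p21 and was picked after its values were seen, stood at 30.3 CPM in KO replicate 2 and at 415 to 821 CPM elsewhere, highest in HET replicate 2. Its extremes were thus the same 2 libraries as those of the replication genes, with the order turned around. These 2 libraries were also the ends of the first principal component. The share of all tested genes with such extremes was not computed.

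Proliferation markers outside S phase, mostly genes of mitosis, gave 9 of 9 log2 fold changes above 0 (background 50.9%, median 1.06). None was at an unadjusted p under 0.05 (background 4.3% higher in KO). HET replicate 2 was lowest for all 9 (background 21.7%) and KO replicate 2 highest for 8 (background 26.3%). Without these 2 libraries the median was -0.059. Mki67, the Ki-67 gene, stood at 168, 19.1 and 76.0 CPM in HET and 138, 429 and 104 CPM in KO. For Ccnb1, the mitotic cyclin B1, levels were 34.7, 4.89 and 18.5 CPM in HET and 38.6, 53.9 and 28.3 CPM in KO. In both genes HET replicate 1 lay above KO replicate 3, as in most of the 47.

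Several members share reads with near-identical processed pseudogenes, and the assignment of those reads is uncertain. Pcna-ps2 matches 99.2% of 781 of the 783 coding bases of Pcna, and it was given more reads than Pcna in every library. Its share of the CPM of gene and copy together was 62.7%, 62.3% and 62.5% in HET and 62.9%, 62.1% and 60.8% in KO. This share was almost constant, and the log2 fold change was 1.19 for Pcna alone and 1.17 for the sum. The copy held 22.0% to 27.1% for Uhrf1, 15.7% to 17.5% for Mcm4, 12.7% to 23.8% for Cdc6, 25.3% to 35.0% for Rfc5, 30.8% to 41.8% for Rpa3 and 4.39% to 7.55% for Mcm6. With the copies added, 7 of the 47 genes had an unadjusted p under 0.05 (background 4.3%), and adding them took Rpa3 from 0.09 to -0.0028. Copies of Mcm7 (Gm5487, 97.7% of 2157 aligned bases), Tyms (Tyms-ps, 93.9% of 935) and Rrm2 (Gm48455, 95.5% of 419) had no deposited counts. They could not be added.

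**Figure D5:**
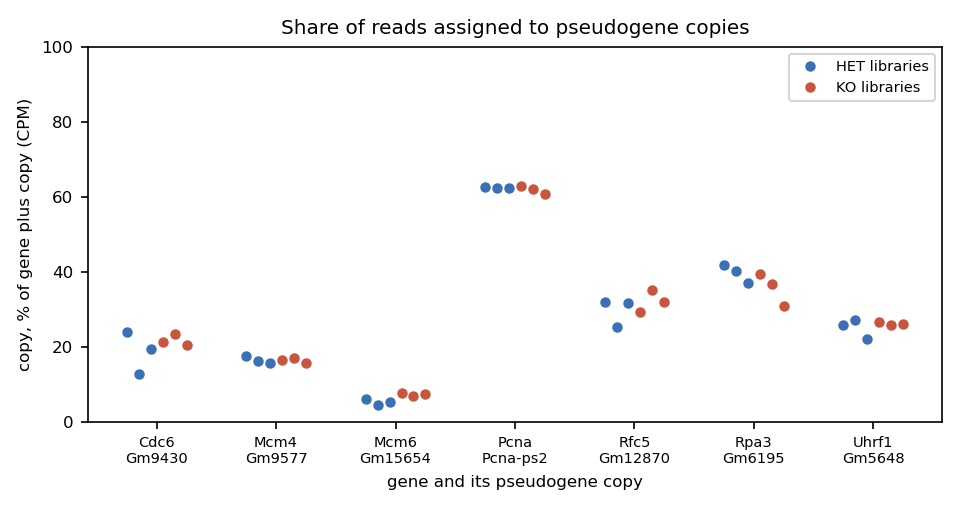
Share of CPM assigned to the pseudogene copy, as a percent of gene plus copy (y axis from 0 to 100), for 7 replication genes in the 3 HET (blue) and 3 KO (red) libraries. The Pcna copy takes 60.8% to 62.9% in all 6 libraries.

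Overlapping genes on the other strand touched 11 members by at least 150 exonic bases, and more than 20% of the exons in 4. These were Fen1 with Gm10143 (78.8%), Gins2 with Gse1 (67.3%), Chaf1a with Ubxn6 (52.5%) and Orc2 with Nif3l1 (29.8%). The kit keeps strand, but whether the counting used it was not given, so reads there may belong to either gene. Gse1 ranged from 13.5 to 41.2 CPM and Nif3l1 from 34.5 to 64.4 CPM over the 6 libraries, with Nif3l1 lowest in KO replicate 1 and highest in KO replicate 3, while Gm10143 reached at most 3.72 CPM. Below 20%, Ccne2 shared 17.4% of its exons with Ints8, picked after its values were seen. Ints8 ranged from 22.0 CPM in KO replicate 1 to 50.0 CPM in KO replicate 3. Its part in the levels of Ccne2 was not tested.

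Levels of different subunits depended on the length used. The deposited RPKM followed the genomic span of a gene, introns included, for 43 of the 47 members. On RPKM, Mcm7 was the highest of MCM2-7 in 5 of 6 libraries (median 5.47 RPKM), whereas per kb of transcript Mcm6 was highest in 5 of 6 (median 30.4 CPM per kb). Rrm2 exceeded Rrm1 in 6 of 6 libraries on RPKM and in 3 of 6 per kb of transcript. The order Orc6 above Orc2 above Orc1 held in all 6 libraries on both scales, with medians of 23.7, 8.40 and 1.41 CPM per kb of transcript. Ccne1 likewise exceeded Ccne2 in all 6 libraries on both scales. In the GINS complex Gins2 was highest in 6 of 6 libraries on RPKM and Gins4 in 6 of 6 per kb of transcript.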

How the data were processed

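The authors deposited an estimated count and an RPKM value per gene for each of 6 libraries, made with Partek, cutadapt 1.2.1 and Bowtie2 on GRCm38 (mm10), per the submitters' processing notes. The annotation and the counting method are not given in the sources used here. RNA was taken with Trizol and libraries keep strand after ribosomal RNA removal, per the labels' protocols. Of the deposited estimated count values, 90.1% were whole (tolerance 1e-09). Of 48408 rows, 30 with a biotype in place of a gene were left out, and 7 symbols on more than 1 row were summed.

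The deposited RPKM divides by the genomic span: the implied length was 1.22 times the span in 86.4% of 13507 genes (GENCODE M21, GRCm38). Levels between genes were therefore also computed as CPM per kb of the transcript with the longest coding sequence.

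Counts were rounded, filtered with filterByExpr (minimum count 10), scaled by TMM and tested KO against HET, two-sided, with edgeR 4.0.16 (quasi-likelihood) in R 4.3.3 and Benjamini-Hochberg adjustment over all 17584 genes at 0.05. SE is the size of the log2 fold change over the root of F. A floor of 3 counts equals 0.0682 to 0.119 CPM and covers counting error only. Alternatives were DESeq2 1.42.0, limma 3.58.1 (voom, log2(RPKM + 1) and log2(RPKM + 0.1)), other scalings and filters (minimum count 30), and libraries left out. Adding pseudogene copies and the transcript length were chosen after seeing the data. The test was tested on simulated data.

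Members and lists were chosen with earlier results of these data known. Full values are given for up to 3 members of smallest p per role, for members whose sign opposes the median, and for up to 2 genes per other list, and some results on these lists are not reported here. Replicate numbers follow accession order and pair no libraries. Pseudogene copies needed 250 aligned bases at 90% identity. Promoters came from RefSeq (GRCm38.p6). Ccne2, Gins2, Pole, Gins4, Prim2, Rfc2, Mcm4 and Gins1 had no matched window.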

Additional observations from a re-analysis of the deposited data

How the results depend on the processing

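No member passed the adjusted threshold in any fit, and the median log2 fold change of the 47 genes was above 0 in all of them. It was 0.53 to 1.75 when 1 library was left out and 0.23 without HET replicate 2 and KO replicate 2. The number of members at an unadjusted p under 0.05 was 7 and was not stable. It was 14 with library size alone, where the median of all genes moved to 0.15 (log2), 15 without a filter, 18 in DESeq2 (background 3.25%), 2 in limma-voom (background 3.67%) and on log2(RPKM + 1) (background 5.9%), and 0 with a term for the shared title number (background 2.54%). It was 0 to 20 when 1 library was left out: 20 without HET replicate 1, 17 without KO replicate 3, and 0 when HET replicate 2, HET replicate 3 or KO replicate 2 was missing. It was 2 without the pair of libraries that share a title number and 0 without HET replicate 2 and KO replicate 2. Over all genes, DESeq2 gave 201 calls (1.05%) where edgeR gave 0 with 1511 at an unadjusted p under 0.05, and none of the 201 was a member (smallest adjusted p 0.242). The cause was not tested.

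Signs turned in several genes named here. Rpa3 ranged from -0.13 (KO replicate 2 left out) to 0.25 with 1 library fewer, at -0.019 when that was HET replicate 2. It was -0.23 without both of these and -0.0028 with its copy added. Rrm1 ranged from -0.016 (KO replicate 2 left out) to 0.73 and was -0.21 without both, and Lig1, at 1.37 with all libraries, was -0.074 without both. Mcm5 (1.85), E2f2 (1.56) and Rfc5 (0.92) likewise came to -0.083, -0.17 and -0.12. Rrm2 was 0.15 with library size alone, 0.0049 on log2(RPKM + 1) and 0.016 with the title number term. With 1 library left out it ranged from -0.44 to 0.32, at 0.24 without HET replicate 1 and 0.32 without KO replicate 1. The CDK inhibitor median was 0.093 in limma-voom and 0.53 without the shared title number, and ranged from -1.13 to 0.24 (HET replicate 3 left out) with 1 library fewer. The median of proliferation markers outside S phase was -0.059 without HET replicate 2 and KO replicate 2. Mcm7 was highest of its complex in 5 libraries on RPKM and in 0 per kb of transcript. No paired analysis was possible because only 1 title number is shared between the labels. The term for it sets that pair of libraries apart from the other 4 and pairs nothing else.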

Other observations

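Among the 47 genes, the libraries other than HET replicate 2 and KO replicate 2 did not separate by label. In 36 genes HET replicate 1 lay above KO replicate 3. HET replicate 1 lay above HET replicate 3 in 46 genes, KO replicate 1 above HET replicate 3 in 44 and KO replicate 1 above KO replicate 3 in 38. HET replicate 3 lay above HET replicate 2 in 44. Shares over all tested genes were not computed for these pairs. KO replicate 3 lay above HET replicate 3 in 41 genes (background 50.2%). Without HET replicate 2 and KO replicate 2, 38 of 47 log2 fold changes were above 0 (background 50.7%). The median member had 28.3, 8.67 and 16.9 CPM in the HET libraries and 28.2, 74.0 and 21 CPM in the KO libraries. Further replication genes at an unadjusted p under 0.05, named after their values were seen, were Atad5 (log2 fold change 1.72 ± 0.68) and, for nucleotide supply, Shmt1 (2.72 ± 0.91). Brca2, of fork repair, stood at 1.37 ± 0.53. E2F words stood in 11 of 37 windows of the other replication machinery genes (29.7%) and in 8 of 24 of the G1 to S control genes (33.3%).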
